A study of Mus musculus with 24 samples.

Results

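Transcripts of the 7 sirtuins (Sirt1 to Sirt7) and the 3 class I histone deacetylases Hdac1, Hdac2 and Hdac3 were followed through 4 tissues of wild-type and Rap1 knock-in mice. The members were all non-control probes of the array whose RefSeq accession belongs to one of these 10 genes, which gave 15 of 55681 probes for 10 of 21368 named genes. Hdac1 had 3 probes, Sirt4, Sirt6 and Sirt7 had 2 each, and the other 6 genes had 1 each. Where a gene had several, they are numbered from the brightest, probe 1, downwards. All 15 probes were well above background on all 24 arrays by the call of the scanner software, and none was saturated, so no member was lost to a filter.

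Liver, brain, heart and skeletal muscle came from 3 WT and 3 Rap1 KI/KI males, with 1 single-color Agilent array for each mouse and tissue. Rap1 KI/KI mice carry the I312R change in RAP1 (gene Terf2ip), a subunit of the telomere complex shelterin, which keeps RAP1 from binding TRF2 and so from telomeres. The allele was made by CRISPR/Cas9 and is present in every cell, and the line had been crossed back 4 times to C57BL6 mice (C57BL/6N in the methods of the study). The labels call the groups RAP1 WT and RAP1 MUT, and no agent was given to either. WT1 and KI1 were 5 months old, and WT2, WT3, KI2 and KI3 were 2 months old, so age is balanced between the genotypes. The comparison of genotypes asks whether loss of RAP1 from telomeres goes with changed transcript levels in young animals. The study also reports less RAP1 protein and more cytosolic RAP1 in Rap1 KI/KI embryonic fibroblasts and brains. The comparison cannot separate these from the loss at telomeres.

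Both families remove acyl groups, most often acetyl groups, from lysines. Class I deacetylases use a zinc ion and work on histones in large repressor complexes, with Hdac1 and Hdac2 in the Sin3, NuRD and CoREST complexes and Hdac3 in the NCoR and SMRT complexes. Sirtuins consume NAD+ in the reaction and so tie it to the metabolic state of the cell. Sirt1, Sirt6 and Sirt7 are nuclear (Sirt7 mostly in the nucleolus), Sirt2 is mainly cytosolic, and Sirt3, Sirt4 and Sirt5 are mitochondrial.

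The promoters of the genes with the widest tissue differences (Sirt7, Sirt3 and Sirt5) and of Hdac2, which differed most between the genotypes, are shown from 250 bases before to 50 bases after the start (RefSeq, GRCm38.p6). The table of promoters held 8 of the 10 genes in 10 entries. Capitals mark matches, on either strand, to 5 motifs that were searched: the GC box GGGCGG, the CCAAT box CCAAT, the TATA box TATAAA, the E-box CACGTG and the ETS core CCGGAAG. No motif overlaps another in these 4 promoters, and the first of 2 Sirt3 entries is shown.
Sirt7, chr11:120624965-120625264 (minus strand): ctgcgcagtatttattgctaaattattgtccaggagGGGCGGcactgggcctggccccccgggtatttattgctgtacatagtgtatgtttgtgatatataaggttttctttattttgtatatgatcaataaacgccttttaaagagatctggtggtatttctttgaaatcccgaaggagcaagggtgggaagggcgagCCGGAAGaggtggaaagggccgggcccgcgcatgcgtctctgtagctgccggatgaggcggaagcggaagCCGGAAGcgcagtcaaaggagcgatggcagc
Sirt3, chr7:140882260-140882559 (minus strand): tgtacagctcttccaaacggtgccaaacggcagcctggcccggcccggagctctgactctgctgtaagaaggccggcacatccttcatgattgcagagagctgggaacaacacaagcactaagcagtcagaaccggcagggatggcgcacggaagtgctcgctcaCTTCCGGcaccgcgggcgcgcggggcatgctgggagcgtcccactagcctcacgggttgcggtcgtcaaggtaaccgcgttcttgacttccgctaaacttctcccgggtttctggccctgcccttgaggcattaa
Sirt5, chr13:43365285-43365584 (plus strand): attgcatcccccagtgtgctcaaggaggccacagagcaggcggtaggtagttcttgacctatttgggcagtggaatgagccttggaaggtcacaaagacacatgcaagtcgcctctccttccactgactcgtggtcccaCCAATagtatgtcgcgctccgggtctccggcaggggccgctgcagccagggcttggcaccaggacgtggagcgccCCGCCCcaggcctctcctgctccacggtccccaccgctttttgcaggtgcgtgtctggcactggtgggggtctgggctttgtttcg
Hdac2, chr10:36974294-36974593 (plus strand): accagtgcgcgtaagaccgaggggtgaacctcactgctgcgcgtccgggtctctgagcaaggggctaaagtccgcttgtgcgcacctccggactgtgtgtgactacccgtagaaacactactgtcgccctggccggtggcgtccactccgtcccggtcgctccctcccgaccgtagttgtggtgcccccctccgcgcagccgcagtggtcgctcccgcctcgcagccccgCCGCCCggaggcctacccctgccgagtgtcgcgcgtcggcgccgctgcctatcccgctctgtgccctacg
Sirt7 held 1 GC box and 2 ETS cores, and the Sirt3 entry shown held 1 ETS core. The other Sirt3 entry held 4 GC boxes, 1 CCAAT box and no ETS core. Sirt5 held 1 GC box and 1 CCAAT box, and Hdac2 held 1 GC box. Among all 32851 promoters of this length, 35.7% held a GC box, 37.4% a CCAAT box, 13.6% a TATA box, 7.15% an E-box and 8.86% an ETS core. The matches are descriptions of these letters and not measured binding sites.

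Levels are log2 intensities relative to the 75th percentile of the same array, so that 0 is that percentile and a step of 1 is a doubling. Levels of different probes are not compared with each other, because probes differ in how well they hybridize. The 75th percentile ranged from 471 to 1389 intensity units over the arrays, and 56.5% to 72.7% of the probes were well above background. Each tissue carried its own markers: the mean level of 10 liver markers was 8.06 to 8.77 in the livers, that of 10 brain markers 4.21 to 4.55 in the brains, that of 10 heart markers 6.90 to 8.35 in the hearts, and that of 10 skeletal muscle markers 7.12 to 7.43 in the muscles. The muscle sample of KI3 also carried brain markers at a mean level of 1.62, with 9 of 10 above background, where the other 5 muscles lay between -2.89 and -1.50. In the hearts, the mean level of 8 adipocyte markers was 3.52 in KI1 and 4.42 in KI3, and -1.40 to 1.28 in the other 4 mice. For several member results, values without these 3 arrays are therefore given as well, while the gene lists below use all arrays. Other arrays also stood apart, and no fit left out only those arrays. Neutrophil markers averaged 1.91 in the muscle of KI1 and -4.94 to -1.20 in the other muscles. Liver markers averaged -1.60 in the brain of WT1 and -4.69 to -3.76 in the other brains. Red cell markers averaged 2.11 to 2.57 in WT and 2.95 to 3.76 in Rap1 KI/KI muscles. Terf2ip differed by -0.41 to 0.12 between the genotypes in the 4 tissues (lowest adjusted p 0.663), which does not test the labels, since the allele changes an amino acid and not the transcript.

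Between tissues the members differed by up to 2.81 on the log2 scale, and between the genotypes by no more than 0.75. Sirt7, Sirt3 and Sirt5 spanned 7.03-fold, 6.44-fold and 5.69-fold between their highest and lowest tissue, and Hdac3 spanned 2.63-fold. Pairs of tissues were compared with limma over all 24 arrays, averaged over the genotypes, and a probe was called at an adjusted p under 0.05. Between liver and brain 11 of the 15 member probes were called, beside 79% of all 42463 tested probes. The counts were 10 between liver and heart (66.7% of all probes), 12 between liver and muscle (71.1%), 9 between brain and heart (67.7%), 8 between brain and muscle (70.2%) and 5 between heart and muscle (43.5%). These shares of the members lie near those of all probes, so the counts say nothing particular about the family, and the genes are described one by one. All livers lay on 1 slide and all muscles on another, and with slide as a block the counts fell to 5 between liver and heart and to 5 between liver and muscle. RNA of liver and brain was extracted with another kit than RNA of heart and muscle, and the kit and these pairs of tissues cannot be told apart. In whole tissue, fewer cells of a type and less RNA per cell cannot be told apart either.

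**Figure D1:**
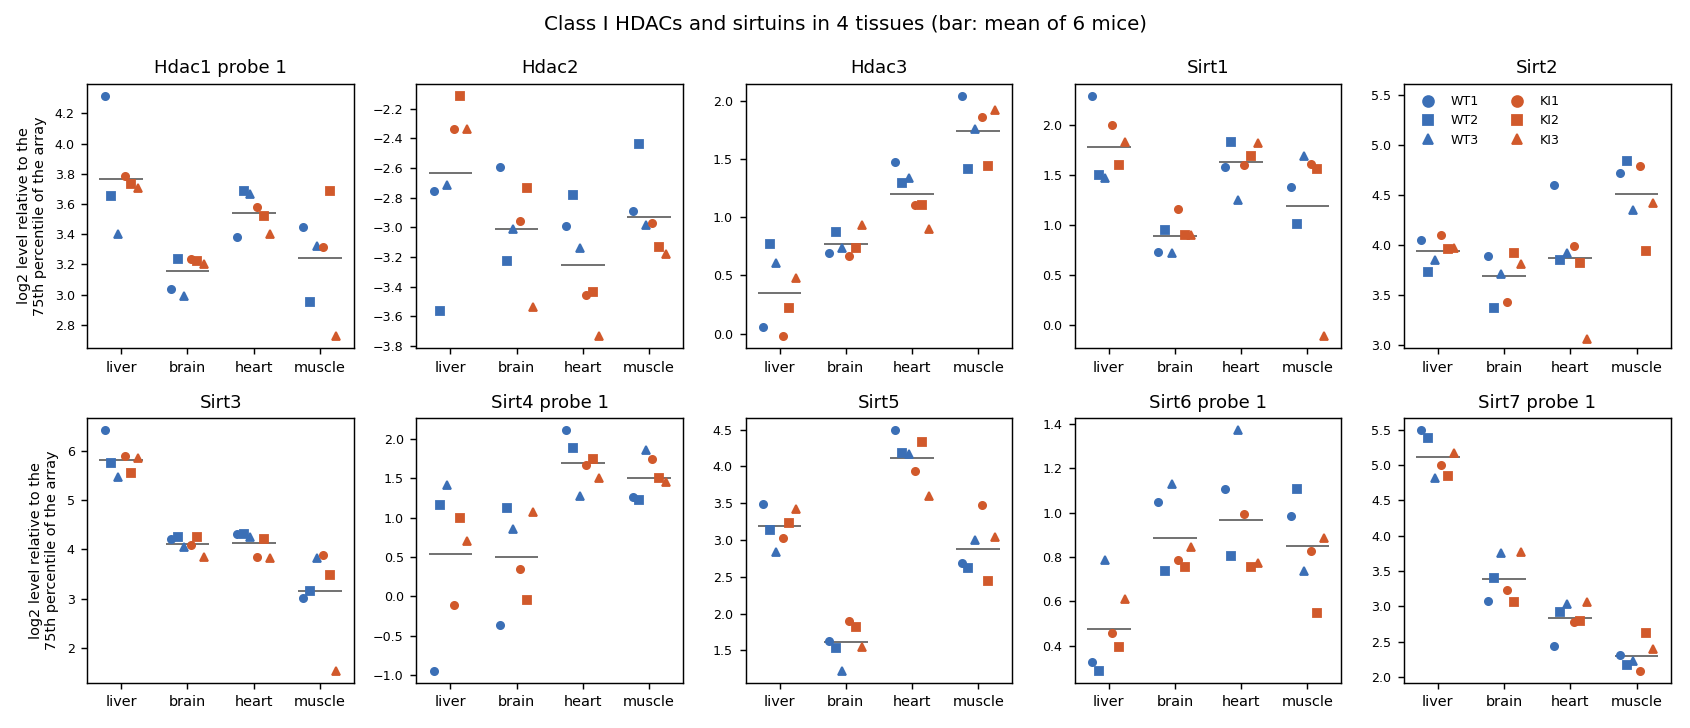
Level of the brightest probe of each of the 10 genes (y axis, log2 scaled to the array's 75th percentile) in each tissue (x axis), with 1 point per mouse and a bar at the mean of 6 mice. WT mice are blue and Rap1 KI/KI mice orange. Sirt3 and Sirt7 are highest in liver, Sirt5 in heart and Hdac3 in muscle, and the muscle sample of KI3 lies lowest for Hdac1, Sirt1 and Sirt3.

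Sirt7, the nucleolar sirtuin that acts on ribosomal RNA gene transcription and on histone H3, fell stepwise from liver to muscle. In liver its probe 1 had a lowest, median and highest level of 4.81, 5.09 and 5.49 over the 6 mice. The corresponding levels were 3.06, 3.32 and 3.77 in brain, 2.45, 2.85 and 3.05 in heart, and 2.09, 2.27 and 2.62 in muscle. All livers lay above all brains, all brains lay above all hearts, and hearts and muscles overlapped. Liver exceeded muscle by 2.81 (standard error 0.17, adjusted p = 1.56e-11) and exceeded brain by 1.73 (standard error 0.17, adjusted p = 1.66e-08). Brain exceeded heart by 0.55 (adjusted p = 0.00803), and the adjusted p reached 0.0938 over the alternative settings given below. Heart exceeded muscle by 0.53 (adjusted p = 0.0158). The last step was lost without KI1 (0.49, adjusted p = 0.0773), without WT2 (0.49, adjusted p = 0.084) and without the hearts of KI1 and KI3 (0.49, adjusted p = 0.0971). Probe 2 had the same order of tissues, with liver 2.36 above muscle (adjusted p = 1.85e-09), and its step from heart to muscle did not pass the test (0.33, adjusted p = 0.185).

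Sirt3, the main deacetylase of mitochondria, was also highest in liver. Its lowest, median and highest levels were 5.47, 5.82 and 6.43 in liver, 3.85, 4.15 and 4.25 in brain, and 3.83, 4.24 and 4.32 in heart. Muscle ran from 1.53 through 3.32 to 3.89, and the value of 1.53 was that of KI3. Every liver lay above every sample of the other tissues, while brain and heart covered the same range and differed by 0.02 (standard error 0.29, adjusted p = 0.967). Liver exceeded heart by 1.70 (standard error 0.29, adjusted p = 3.56e-05). Brain exceeded muscle by 0.97 (adjusted p = 0.0058), and by 0.61 (adjusted p = 0.00678) without the muscle of KI3; with slide as a block it was 0.82 (adjusted p = 0.238). Without that array the 5 muscles had a mean of 3.47 ± 0.39 (SD, n = 5).

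Sirt5, which removes malonyl, succinyl and glutaryl groups from mitochondrial proteins, had another order. Heart was highest, with levels of 3.59, 4.17 and 4.49 (lowest, median and highest). Liver followed with 2.84, 3.18 and 3.49, muscle with 2.45, 2.84 and 3.48, and brain with 1.22, 1.59 and 1.90. No heart overlapped any liver or brain, and no brain overlapped any other tissue, whereas liver and muscle overlapped and differed by 0.32 (standard error 0.18, adjusted p = 0.123). The difference of 2.51 between heart and brain (standard error 0.18, adjusted p = 2.77e-10) was 5.69-fold. Thus Sirt3 and Sirt5, both mitochondrial, were highest in different tissues: heart was 0.92 above liver for Sirt5 (adjusted p = 0.000152) and 1.70 below it for Sirt3.

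Sirt4, the remaining mitochondrial sirtuin, which acts on amino acid and lipid metabolism, gave different orders with its 2 probes. Probe 1 was highest in heart (1.28, 1.70 and 2.10 as lowest, median and highest) and muscle (1.23, 1.47 and 1.86), and lower in liver and brain. Probe 2 was lowest in brain, where the 6 mice lay between -2.19 and -1.90, below all samples of heart and muscle and all livers but that of WT1, which was at -2.02. Heart exceeded brain on both probes, by 1.20 on probe 1 (standard error 0.35, adjusted p = 0.00543) and by 1.82 on probe 2 (standard error 0.36, adjusted p = 0.000191). On probe 1 the adjusted p reached 0.0906 over the alternative settings given below. Muscle and liver turned with the probe: muscle was 0.97 above liver on probe 1 (adjusted p = 0.0193) and 0.78 below it on probe 2 (-0.78 as muscle minus liver, adjusted p = 0.0607). The call on probe 1 did not hold without KI1 (0.76, adjusted p = 0.12) or with slide as a block (0.68, adjusted p = 0.53). The correlation between the 2 probes over the 24 arrays was 0.55, and no direction between muscle and liver is given for the gene.

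Hdac3, the catalytic subunit of the NCoR and SMRT corepressors, ran against Sirt7, rising from liver through brain and heart to muscle. Its levels were -0.02, 0.35 and 0.77 in liver, 0.66, 0.74 and 0.93 in brain, 0.90, 1.20 and 1.48 in heart, and 1.41, 1.82 and 2.05 in muscle, as lowest, median and highest of the 6 mice. Each neighbouring pair overlapped in its extreme samples, yet each step passed the test: 0.42 from liver to brain, 0.43 from brain to heart and 0.54 from heart to muscle (standard error 0.15 each, adjusted p = 0.0158, 0.0156 and 0.00652). Muscle exceeded liver by 1.39 without overlap (adjusted p = 9.05e-08). The small steps are less secure than the whole: the step to brain missed the threshold without WT1 (0.33, adjusted p = 0.0538) or KI1 (0.39, adjusted p = 0.0635), and the step to heart did so without KI1, KI2 or WT3 (0.39 to 0.43, adjusted p = 0.0513 to 0.071). With slide as a block the steps to brain and heart were 0.33 and 0.43 and missed the threshold. The step to muscle was 0.51 (adjusted p = 0.0535) without the hearts of KI1 and KI3. Over the 24 arrays, which share 6 mice and 4 tissues, the Pearson correlation of Hdac3 was -0.85 with Sirt7 and -0.81 with Sirt3.

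Sirt2, a cytosolic deacetylase whose best-known substrate is tubulin, was highest in muscle (3.94, 4.57 and 4.84 as lowest, median and highest), 0.82 above brain (standard error 0.19, adjusted p = 0.000821) and 0.57 above liver (adjusted p = 0.013). Liver, heart and brain did not differ from their neighbours by more than 0.18 (adjusted p = 0.761 and 0.407). The step from liver to muscle missed the threshold without WT2 (0.48, adjusted p = 0.0672), and the difference to brain fell to 0.19 (adjusted p = 0.38) after quantile normalization.

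Sirt1, the nuclear sirtuin that deacetylates many transcription factors, was lowest in brain, where its 6 levels lay between 0.72 and 1.16 and below all livers and all hearts. Liver exceeded brain by 0.89 (standard error 0.24, adjusted p = 0.00262), and the adjusted p reached 0.0759 over the alternative settings given below. No pair of neighbours in the order liver, heart, muscle, brain passed the test. The muscle of KI3 stood at -0.11, and the other 5 muscles between 1.01 and 1.69 (mean 1.45 ± 0.27, SD, n = 5), so muscle rather than brain held the lowest single value. The brains themselves were at 0.72 or more for Sirt1 and at 3.85 or more for Sirt3, all above the muscle that carried brain markers, whose part in its low values was not tested.

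Hdac1 was highest in liver on all 3 probes, which paired best as probes 2 and 3 (r = 0.85 over 24 arrays, against 0.64 and 0.66 with probe 1). On probe 1 liver was 0.61 above brain, the lowest tissue (standard error 0.17, adjusted p = 0.00264), but quantile normalization turned this to -0.14 (adjusted p = 0.342), so its direction rests on the scaling. On probe 3 liver was 1.60 above muscle (standard error 0.32, adjusted p = 0.000169) and 1.13 above heart (adjusted p = 0.00386). It was also 1.38 above brain on that probe, without overlap (adjusted p = 0.000577). On probe 2 liver was 0.89 above muscle (adjusted p = 0.0474) and 0.63 above brain (adjusted p = 0.147). Single tissue differences of probes 2 and 3 were not refitted under the alternative settings. Sirt6, a chromatin-bound sirtuin that deacetylates histone H3 at telomeres and promoters, was lowest in liver on both probes. Its probe 1 had liver levels between 0.29 and 0.79 and was 0.49 higher in heart (standard error 0.13, adjusted p = 0.00332), which was not called with slide as a block (0.49, adjusted p = 0.137). Its probe 2 was 1.53 higher in brain than in liver (standard error 0.25, adjusted p = 1.28e-05). The mean of Hdac2 was highest in liver and lowest in heart, 0.62 apart (standard error 0.18, adjusted p = 0.00457), which became 0.18 (adjusted p = 0.69) with slide as a block. This difference is split by genotype next.

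Between the genotypes, limma called no member probe at an adjusted p under 0.05 in liver, brain, heart or muscle, and called no probe of the array (0% of 32382 to 37836 tested probes in each tissue). The lowest adjusted p of a member was 1 in liver and brain, 0.646 in heart and 0.939 in muscle. At an unadjusted p under 0.05 there was 1 member probe in liver (2.13% of all probes), 0 in brain (2.62%), 1 in heart (7.51%) and 0 in muscle (2.48%), and both were Hdac2. The 60 differences ran from -0.66 to 0.75, and 52 of them were within 0.5 of 0. The KI/KI and WT mice did not overlap for 1 member probe in liver (5.84% of all probes), 1 in brain (7.73%), 3 in heart (14.7%) and 0 in muscle (6.44%).

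Hdac2, one of the paired catalytic subunits of Sin3, NuRD and CoREST, went in opposite directions in liver and heart. In liver its level was -2.75, -3.56 and -2.71 in WT1 to WT3 and -2.34, -2.11 and -2.34 in KI1 to KI3, so that the 3 Rap1 KI/KI livers lay above the 3 WT livers. In heart it was -2.99, -2.78 and -3.14 in the WT mice and -3.46, -3.44 and -3.73 in the Rap1 KI/KI mice, so that the 3 Rap1 KI/KI hearts lay below the 3 WT hearts. The difference in heart was -0.57 (standard error 0.21, unadjusted p = 0.0295, exact permutation p = 0.1, the smallest that 3 against 3 can give). It was -0.56 within the slide that held 4 hearts and -0.60 within the slide that held 2. With KI2 as the remaining Rap1 KI/KI heart it stood at -0.47. Groups without overlap keep their sign in such splits, so these values do not test the direction.

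Liver minus heart was -0.04 (adjusted p = 0.917) in WT mice alone and 1.28 (adjusted p = 0.000497) in Rap1 KI/KI mice alone, which does not test the difference between them. The genotype differences of the 2 tissues were 1.32 apart. The F test of the interaction of genotype and tissue gave the lowest p of the 15 member probes for Hdac2 (unadjusted p = 0.0084, adjusted p = 1), and 2.93% of all probes had an unadjusted p under 0.05. Thus the interaction did not pass the test across the array. The p was 0.0624 without WT2, whose liver was the lowest of all, and the liver difference was then 0.47 in place of 0.75. The study lists Hdac2 among liver transcripts altered in male mice, so its liver difference here is not independent evidence.

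In brain the levels of Hdac2 were -2.59, -3.23 and -3.01 in WT and -2.96, -2.73 and -3.54 in Rap1 KI/KI mice, and in muscle -2.89, -2.44 and -2.98 against -2.97, -3.13 and -3.18. The genotypes overlapped in both tissues, with differences of -0.13 (standard error 0.29) and -0.32 (standard error 0.22). Hdac2 was the only member with several spots, 10 on each array, and 8 to 10 were used after outlier flags. The SD over the spots of an array, which measures technical spread only, was 0.05 to 0.19. The probe was dim, at 48.6 to 275 intensity units, and the liver and heart differences shrank to 0.39 and -0.39 with normexp background correction.

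**Figure D2:**
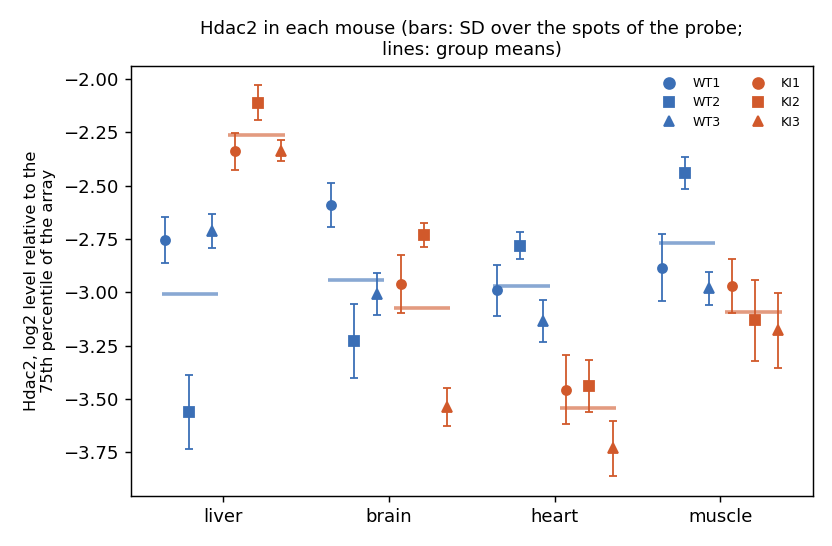
Hdac2 level (y axis, log2 scaled to the array's 75th percentile) of each mouse in each tissue (x axis). Points are means over the spots of the probe, bars their SD, and lines the group means of 3 WT (blue) and 3 Rap1 KI/KI (orange) mice. The orange points lie above the blue ones in liver, from -2.34 to -2.11, and below them in heart, from -3.73 to -3.44.

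Marker lists of other cell types were read in the same samples, where no probe of the array was called between the genotypes. In liver the mean level of 8 proliferation markers was -3.69 to -3.33 in WT and -2.68 to -2.46 in Rap1 KI/KI mice, and 5 of the 8 were higher without overlap, beside 2.77% of all probes. In heart the mean level of the adipocyte markers was -1.40 to 1.28 in WT and 1.28 to 4.42 in Rap1 KI/KI mice, with KI2 level with the highest WT heart and 7 or 8 of the 8 above background in every heart. Of the 7 that were tested there, 1 was higher without overlap, beside 6.03% of all probes. An unadjusted p under 0.05 in limma was reached by 5 of the 7, beside 7.51% of all probes. The median of their genotype differences was 3.67. The mean level of 6 red cell markers in heart was 5.63 to 6.01 in WT and 6.13 to 6.24 in Rap1 KI/KI mice, without overlap, and 2 of the 6 were each higher without overlap (6.03% of all probes). Proliferation markers in heart ranged from -2.82 to -2.65 in WT and from -2.87 to -2.68 in Rap1 KI/KI mice. In muscle they ranged from -4.41 to -4.04 in WT and from -3.55 to -3.33 in Rap1 KI/KI mice. Of the 5 tested in muscle, 3 were higher without overlap, where 6.44% of all probes had no overlap in either direction. Hdac2 differed by -0.32 in muscle. The rise of these markers was thus not limited to liver. The part of all these markers in the Hdac2 differences was not tested.

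Among the other members, 3 more differences had no overlap. Hdac3 in heart was 1.48, 1.30 and 1.34 in WT and 1.11, 1.11 and 0.90 in Rap1 KI/KI mice, a difference of -0.33 (standard error 0.19). Sirt3 in heart was 4.32, 4.32 and 4.26 in WT and 3.85, 4.22 and 3.83 in Rap1 KI/KI mice, also -0.33 (standard error 0.21). In Sirt3 the low hearts were those of KI1 and KI3, and the difference was -0.08 without these arrays. For Hdac3 it was -0.27 without them. Sirt6 in brain was -2.11, -1.94 and -1.86 in WT and -2.23, -2.27 and -2.31 in Rap1 KI/KI mice on probe 2 (-0.30, standard error 0.16), and its probe 1 overlapped between the genotypes (-0.18, standard error 0.18).

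In heart 12 of the 15 member differences were negative, with a median of -0.33 beside -0.02 over all tested probes. Without the hearts of KI1 and KI3, which leaves KI2 as the single Rap1 KI/KI heart against 3 WT hearts, 12 were negative and the median was -0.17, beside 0.04 over all probes, and 1 heart has no replicate check. The members share these 6 hearts, and 8.68% of all probes lay lower in Rap1 KI/KI hearts without overlap. In muscle the median of the members was -0.11 (-0.07 over all probes) and it became 0.10 (-0.04 over all probes) without the muscle of KI3. In liver and brain the medians were -0.05 and -0.09, beside -0.01 and -0.05.

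**Figure D3:**
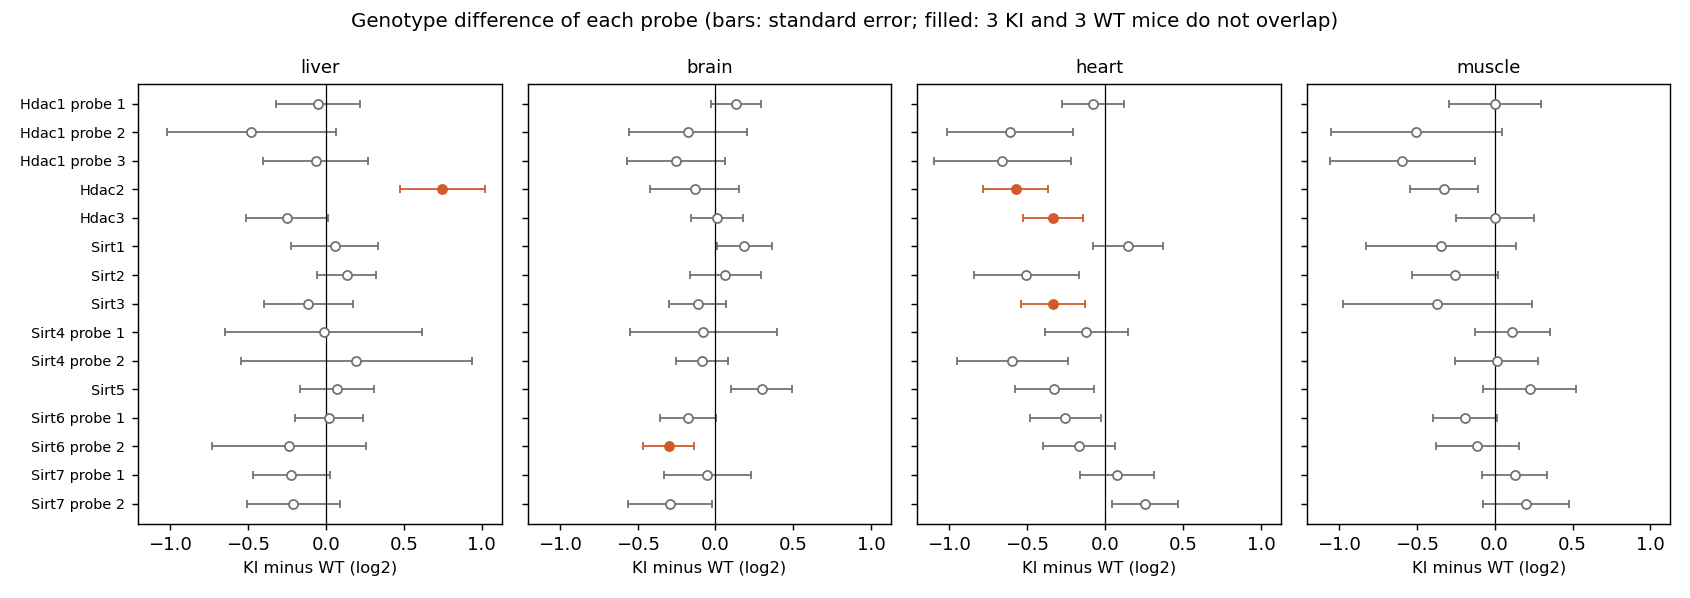
Rap1 KI/KI minus WT level (x axis, log2) for the 15 probes (y axis) in 4 tissues, with standard errors from limma. Filled orange points mark the 5 differences without overlap between 3 and 3 mice, from -0.57 (Hdac2 in heart) to 0.75 (Hdac2 in liver).

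For Hdac1 the largest departures came from a single mouse. On probe 2, KI3 was at 0.33 in liver, 0.24 in brain, 0.17 in heart and -0.71 in muscle, and the lowest of the other 5 mice was at 1.37, 0.94, 1.14 and 0.79. On probe 3, KI3 was at -0.31, -1.74, -2.09 and -2.36, against a lowest value of 0.09, -1.24, -1.11 and -1.77 among the others. So KI3 was lowest in all 4 tissues on both probes, by 0.73 to 1.82 below the mean of the other 5 mice. On probe 1 it was lowest in muscle only, and its distance from the mean of the others was -0.07 in liver, 0.06 in brain, -0.17 in heart and -0.62 in muscle. Probe 1 minus probe 2 was 2.97 to 3.43 in KI3 and 1.50 to 2.78 in all other samples, without overlap, while probe 1 minus probe 3 overlapped (4.02 to 5.49 and 3.05 to 5.45).

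This description was chosen after the values had been seen. The same mouse was lowest in all 4 tissues on 432 of 42463 tested probes (1.02%), more than any other mouse, for which the share was 0.00942% to 0.165%. KI3 remained lowest on both Hdac1 probes in all 4 tissues after quantile normalization, after normexp correction and in the authors' z-scores. The genotype differences of these probes were -0.66 to -0.07, with standard errors of 0.31 to 0.55, and the 2 other Rap1 KI/KI mice lay among the WT mice in liver on both probes. In heart KI2 also lay below the WT mice, at 1.14 against 1.47 or more on probe 2 and at -1.11 against -0.64 or more on probe 3, and in muscle it did so on probe 3 (-1.77 against -1.47 or more).

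**Figure D4:**
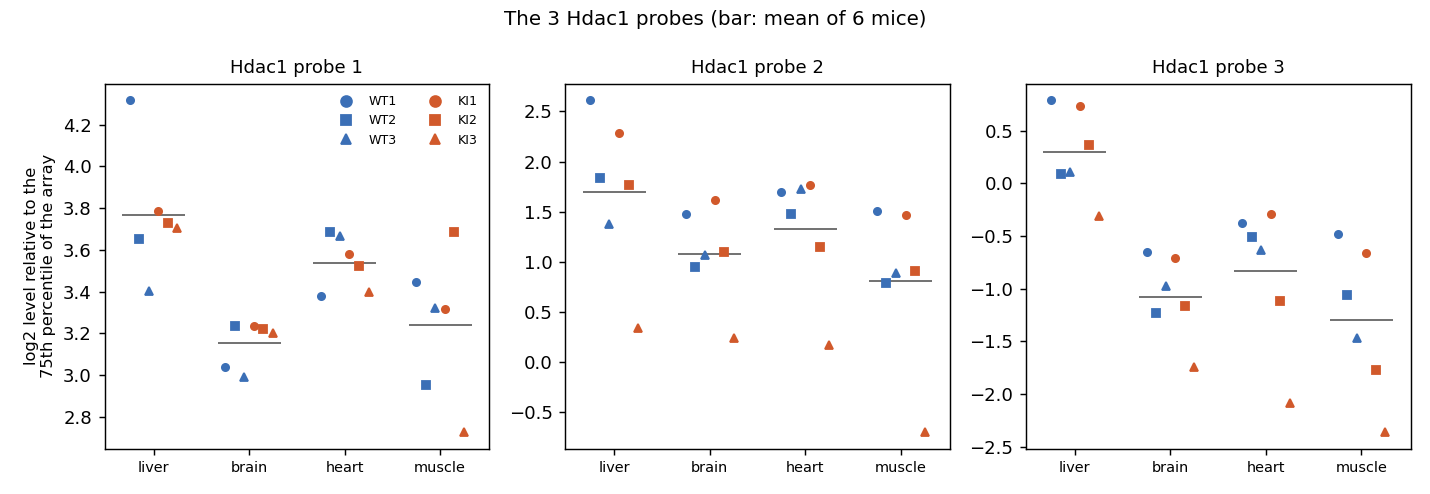
Levels of the 3 Hdac1 probes (y axis, log2 scaled to the array's 75th percentile) by tissue (x axis), with 1 point per mouse and a bar at the mean of 6 mice. The orange triangle of KI3 is lowest in every tissue on probes 2 and 3, but on probe 1 in muscle only.

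Age also divided the livers. The comparison of 5 with 2 months was chosen after the values had been seen, with genotype in the model, and rests on 2 older mice, 1 of each genotype. In liver 11 of the 15 member probes had no overlap between the ages, beside 34.5% of all probes, and 7 had an unadjusted p under 0.05, beside 17.2%. No member passed the adjusted threshold (lowest adjusted p 0.197), and 0.00284% of all probes did. The counts without overlap were 3 in brain, 3 in heart and 2 in muscle, beside 14.6%, 13.4% and 18.7% of all probes. An unadjusted p under 0.05 was reached by 0, 0 and 1 of them, beside 4.95%, 7.02% and 5.92%.

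Sirt4 had the largest age differences of the 15 probes in liver. In liver its probe 1 was at -0.94 in WT1 and -0.11 in KI1, and at 0.70 to 1.41 in the 4 younger mice. Probe 2 was at -2.02 and -0.97 in the older pair and at 0.06 to 0.86 in the younger mice. The differences were -1.59 and -1.88 on the log2 scale (standard error 0.32 and 0.37, adjusted p = 0.2 each). Sirt6 probe 2 was at -4.43 and -4.53 in the older livers and -3.54 to -2.80 in the younger, a difference of -1.25 (adjusted p = 0.197), but Sirt6 probe 1 overlapped (-0.13, adjusted p = 0.767). Hdac3 was at 0.05 and -0.02 in the older livers and 0.22 to 0.77 in the younger. Hdac1 probes went the other way in liver, with 5-month values 0.43, 1.12 and 0.70 higher on probes 1 to 3. Sirt1, Sirt3 and Sirt2 were also higher in the older livers without overlap, by 0.55, 0.50 and 0.20. Sirt7 probe 2 was lower there without overlap (-0.53). The sirtuins thus had no common direction with age in liver. All 6 livers lay on the same slide.

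**Figure D5:**
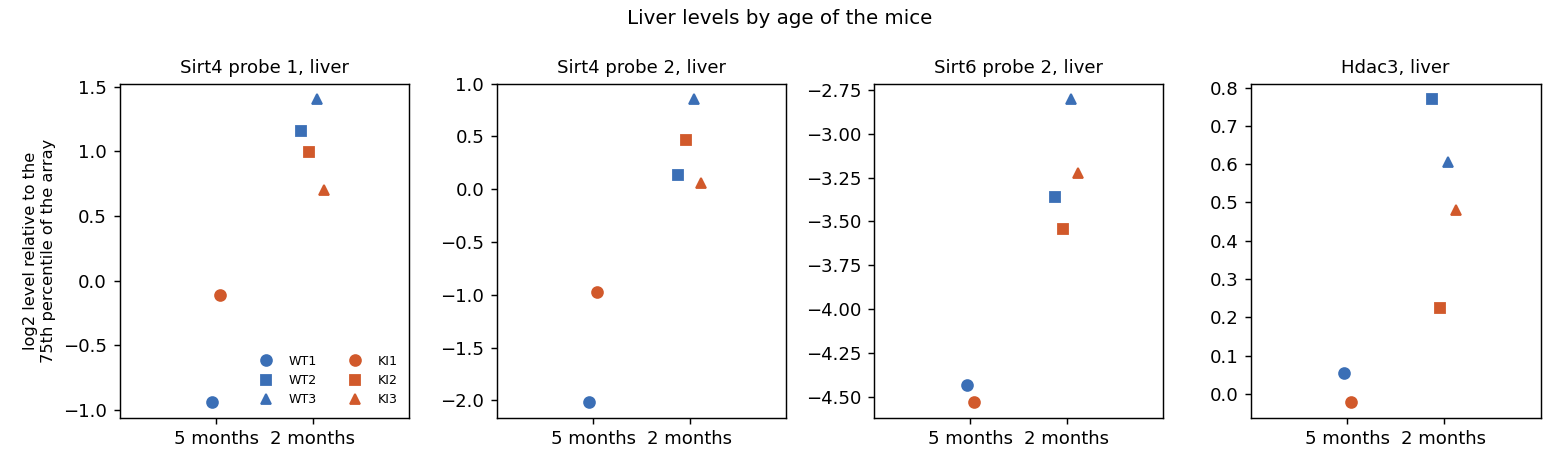
Liver levels (y axis, log2 scaled to the array's 75th percentile) of both Sirt4 probes, Sirt6 probe 2 and Hdac3 by age of the mice (x axis). WT mice are blue and Rap1 KI/KI mice orange. In each panel the 2 older mice lie below the 4 younger ones. Probes that were higher in the older livers are not shown.

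The partners and substrates of these enzymes were followed through 7 written lists, with each gene at its brightest probe. Between the genotypes, 0 genes of any list passed the adjusted threshold. At an unadjusted p under 0.05 there were 1 of 147 tested entries in liver, 6 of 148 in brain (5 up and 1 down in the Rap1 KI/KI brains), 6 of 147 in heart (1 higher and 5 lower) and 1 of 143 in muscle, beside the 2.13%, 2.62%, 7.51% and 2.48% of all probes given above. The lowest p was that of Cd38, an NAD+-consuming ectoenzyme, in brain (1.02 higher, standard error 0.21, adjusted p = 1). Of the 42 class I complex subunits, 9 lay lower and 1 higher without overlap in Rap1 KI/KI hearts (8.68% and 6.03% of all probes). Their median was -0.14 beside -0.02 over all probes. In livers 2 of 41 lay lower and 1 higher (3.07% and 2.77% of all probes), with a median of -0.01. Of the 25 mitochondrial sirtuin targets, 5 lay lower and 1 higher without overlap in hearts (8.68% and 6.03% of all probes), with a median of -0.23 beside -0.02 over all probes. The other 5 lists went both ways in hearts. Among 14 acetyltransferases 4 lay lower and 0 higher without overlap, and among 8 other histone deacetylases 1 and 0. Among 25 nuclear and cytosolic targets 1 lay lower and 0 higher. Among 16 tested NAD+-consuming enzymes 0 lay lower and 3 higher, and among 17 tested genes of NAD+ synthesis and salvage 0 and 1. These are the hearts with the adipocyte markers given above, whose part was not tested.

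Across tissues the lists differed more. Of the 22 genes of NAD+ synthesis and salvage, 15 were highest in liver and 0 in heart. Liver was called above brain in 19 and below it in 3, where 79% of all probes were called. The median difference was 4.33 beside 0.35 over all probes. Tdo2 and Kynu, enzymes of the kynurenine route from tryptophan, were at 6.43 and 4.22 in liver. Tdo2 was above background on 1 of 6 muscle arrays, and Kynu on none of the brain arrays. Kynu was at least 1444-fold higher in liver than in brain (adjusted p = 8.08e-13). Nmrk2, the muscle form of nicotinamide riboside kinase, was at 7.44 in muscle, at least 11110-fold above liver, where no array measured it well above background (adjusted p = 8.99e-19).

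Of the 25 mitochondrial sirtuin targets, 15 were highest in heart, 9 in liver and 0 in brain. Brain was called below heart in 23 and above it in 0, where 67.7% of all probes were called. The median difference was -2.80, beside -0.27 over all probes. Otc and Cps1, urea cycle enzymes and known substrates of mitochondrial sirtuins, were at 6.70 and 7.04 in liver. Otc was not well above background on any brain array, which put liver at least 8070-fold higher (adjusted p = 1.62e-16). Cps1 was not so on any muscle array, and liver was at least 5283-fold above muscle (adjusted p = 3.75e-17). Gata4, a cardiac transcription factor among the nuclear and cytosolic targets, was at 3.59 in heart and at least 934-fold lower in brain (adjusted p = 1.56e-16).

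Of the 8 other histone deacetylases, Hdac4, a class IIa enzyme that binds Hdac3, had the same order of tissues as Hdac3, from -0.14 in liver through 1.39 in brain and 1.99 in heart to 2.83 in muscle, a range of 2.97 (standard error 0.23, adjusted p = 8.64e-10). Hdac9, also of class IIa, was 4.69 higher in heart than in liver (adjusted p = 7.33e-14), and Hdac11 was 3.70 higher in brain than in muscle (adjusted p = 4.32e-11). Among the 42 complex subunits, Chd5, a NuRD helicase of neurons, was at 4.45 in brain and was above background on 2 of 6 liver arrays. Rcor2 of the CoREST complex was 5.77 higher in heart than in liver (adjusted p = 6.11e-14). Kat2b, an acetyltransferase that opposes these enzymes, was 4.05 higher in liver than in brain (adjusted p = 3.68e-11). Of the 14 acetyltransferases, 4 were called between heart and muscle, beside 43.5% of all probes.

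Likeness to each member was taken as the Pearson correlation over the 24 arrays, which share mice and tissues, among 18310 other genes at their brightest probe. For Sirt7 the 2 most alike genes were Fgd6 (r = 0.99) and Stxbp2 (0.98), for Sirt5 they were Slc20a2 (0.99) and Plin3 (0.98), and for Sirt3 Aldh9a1 (0.95) and Cfdp1 (0.94). For Hdac3 they were Rgmb and Hdac4 (0.93 each), for Sirt1 Zfp266 (0.92) and Stk38l (0.88), for Hdac1 Znfx1 and Arpc3 (0.91 each), and for Sirt2 Fdx2 (0.91) and Ipo4 (0.89). Sirt4 gave Srsf1 (0.89) and H3c3 (0.88), Sirt6 gave Msx1 (0.84) and Fzr1 (0.83), and Hdac2 gave Trp53rka (0.81) and Tle4 (0.79). The genes with steep tissue differences had the closest neighbours, and Hdac2 the most distant.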

How the data were processed

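The authors deposited the processed signal intensity of every spot of 24 single-color Agilent arrays. Feature Extraction 12.0.3.1 had subtracted the background, and arrays were not normalized to each other. They also deposited a score per spot, the z-score of log10 intensity within an array (recomputed to within 0.005). Here, log2 intensities of unflagged spots of a probe were averaged, and the 75th percentile of the array was subtracted. Of 55681 non-control probes, 28331 were named for 21368 genes through RefSeq accessions (GRCm38.p6). Genes outside the members are given by their brightest probe.

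WT and Rap1 KI/KI arrays of a tissue were fitted by limma 3.58.1 (R 4.3.3) on probes that at least 3 of the 6 arrays measured well above background. Tissues and the interaction were fitted over all 24 arrays, on probes so measured on 3 arrays of any tissue. P-values are two-sided, adjusted by Benjamini-Hochberg over all tested probes, and called under 0.05. The number of arrays limits the precision. A lower bound on a fold uses, for each dim array, its faintest detected signal. The genotype fit in liver, the fit of liver minus brain and the interaction fit were run on simulated data. Noise was drawn independently for each array there, so the sharing of mice was not simulated. The other fits were not run on simulated data.

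By the labels, the 4 tissues came from the same 6 mice. Deviations from group means correlated at -0.22 to 0.26 between tissues of a mouse (36 pairs, 9 above 0.1), and with the mouse as a replicate block the consensus correlation was 0.026. Alternatives were quantile normalization, normexp correction (offset 50), the z-scores, other filters, trend and robust moderation, age, slide, a replicate block, each mouse left out, each genotype alone and other probes. Leaving out doubted arrays, the replicate number as a block and the comparison of ages were chosen after seeing the data. All member probes are named. Of the list genes with an unadjusted p under 0.05 between genotypes in limma, only Cd38, which had the lowest p, is named for it. List genes named for tissue differences are a selection from the widest of their lists. Pck1 and Pgam2, for example, had wider tissue differences than Gata4. The members and lists were chosen with earlier results of these data known. Arrays of female mice were not analysed here.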

Additional observations from a re-analysis of the deposited data

Results flagged for a closer look

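The genotype difference of Hdac2 had opposite signs in liver and heart, with all 3 Rap1 KI/KI mice above the WT mice in liver (0.75 as KI minus WT) and below them in heart (-0.57). The difference between the tissues was tested by the interaction of genotype and tissue, which gave an unadjusted p of 0.0084 and an adjusted p of 1 in limma over 42463 probes. Over the alternatives, the unadjusted p ranged from 0.00546 to 0.0624. Groups of 3 mice were too small for a test of single outlying samples.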

How the results depend on the processing

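Counts of member probes called between genotypes stayed at 0 under all 68 alternatives. The 96 alternative values of single genotype differences covered only the 5 differences without overlap, and none changed sign. Where groups do not overlap, leaving out a mouse or splitting by slide cannot turn the sign, so those settings do not test it. Of 457 alternative values of single tissue differences, 408 kept direction and call, 46 lost the call and 3 turned. Muscle minus liver of Sirt4 was -0.78 on its other probe. Liver minus brain of Hdac1 probe 1 was -0.14 after quantile normalization, and liver minus heart of Hdac2 was -0.0398 in WT arrays alone. With slide as a block, 5 members were called between liver and heart (10 without it) and 5 between liver and muscle (12 without it), and the cause was not tested. WT arrays alone gave 7 between liver and muscle, 5 between brain and heart (9 over all arrays) and 2 between heart and muscle (5 over all arrays). KI arrays alone gave 3 between brain and heart and 2 between heart and muscle. These fits hold fewer samples. Without the hearts of KI1 and KI3, 2 were called between heart and muscle, and leaving out 1 mouse at a time gave 2 (without WT2) to 6. With the mouse as a replicate block, the tissue counts were 11, 10, 12, 9, 8 and 5, as without it, the genotype counts 0, and no call of a difference named here changed. With the replicate number as a replicate block within a tissue the genotype counts were also 0. The dimmest members, Hdac2 and Sirt6 probe 2, reached down to 48.6 and 41.2 intensity units, where background correction weighs most.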
